A study of Mus musculus with 2 samples.

Results

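Of 7 miRNAs that are often used as reference miRNAs in serum, 4 could be followed on both arrays. They moved apart by 10.5-fold between exosomes of LLC-bearing mice and exosomes of MSC+LLC-bearing mice. Without miR-484 the range was 2.59-fold. The ratio of miR-484 rests on 1 probe, so dim that only a high ratio could be measured. The 7 were mmu-miR-191-5p, mmu-miR-425-5p, mmu-miR-423-3p, mmu-miR-423-5p, mmu-miR-484, mmu-miR-320-3p and mmu-miR-186-5p, where mmu stands for mouse and is left out in most of the text. They were chosen by name, as the rows of both scanner files that are not control spots and carry one of these names, and they make up 7 of the 1881 miRNAs, 18 of the 4415 probes and 210 of the 56430 miRNA spots of each array. The rule that picks them uses names and no measured value, but the members were chosen with earlier results of these data known.

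Exosomes, small vesicles that cells release, were isolated from the serum of tumour-bearing mice, and their RNA was hybridised to mouse miRNA arrays with 1 colour. Both groups were 6-week-old female C57BL/6 mice that received 1000000 LLC-luciferase cells (Lewis lung carcinoma cells, a mouse lung tumour line, carrying a luciferase reporter) under the skin. The LLC group received these cells alone, and the MSC+LLC group received them together with murine bone marrow mesenchymal stem cells (BMSCs). Serum was taken when the mean tumour volume reached 200 mm3, and each group was measured once, on 1 array. The labels say serum, whereas the text of the study says plasma. The number of mice behind each serum sample, and whether sera were pooled, were not given in the sources used here. Vesicles in serum come from many host tissues as well as from the tumour, so neither sample is RNA of the injected cells alone. The RNA input was 100 ng for both samples, so levels are relative to that RNA and do not count vesicles. The arrays give neither the number of vesicles nor the amount of a miRNA per vesicle, and the miRNA share of the input RNA was not tested.

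Reference miRNAs serve as the fixed point against which other miRNAs in a body fluid are expressed, because vesicle RNA has no accepted housekeeping transcript. A good reference is present in every sample and keeps a constant ratio to the other references. Most miRNAs are cut from a long primary transcript by Drosha and then from the hairpin by Dicer. miR-320 and miR-484 are exceptions, since their hairpins are made without Drosha, while miR-191, miR-425, miR-423 and miR-186 take the usual route from longer transcripts.

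The mature sequences are shown because the arrays measure the members by hybridisation of these letters, and because a shared seed would tie members to shared targets. They were taken from RefSeq (assembly GRCm38.p6), which held 6 of the 7 members, and are written 5′ to 3′ with the seed (bases 2 to 8) in capitals.
miR-191-5p, chr9:108568325-108568347, plus strand: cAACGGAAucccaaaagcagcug
miR-425-5p, chr9:108568789-108568811, plus strand: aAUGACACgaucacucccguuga
miR-423-5p, chr11:77078122-77078144, minus strand: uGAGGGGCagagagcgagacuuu
miR-423-3p, chr11:77078086-77078108, minus strand: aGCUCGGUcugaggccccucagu
miR-484, chr16:14159630-14159651, plus strand: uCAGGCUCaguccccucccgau
miR-186-5p, chr3:157544285-157544306, plus strand: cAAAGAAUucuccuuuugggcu

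The 6 seeds all differed from each other. Among the mature miRNAs of the RefSeq table, miR-425-5p shared its seed with miR-489-3p and miR-423-5p shared its seed with miR-6921-5p, and the other 4 shared it with none. miR-489-3p was detected on neither array, and miR-6921-5p was detected on the LLC array alone (brightest probe 39.2 against 1.88 intensity units on the MSC+LLC array). The members differed in base composition, from 40.9% G and C in miR-186-5p to 65.2% in miR-423-3p.

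The hairpins of miR-191 and miR-425 lie on the same strand with 384 bases between them, within the span of the protein-coding gene Dalrd3. miR-423-5p and miR-423-3p are the 2 arms of 1 hairpin within Nsrp1, and the miR-186 hairpin lies within Zranb2. The miR-484 hairpin lay within no other gene of the table. The miR-423 hairpin is shown because both of its arms are members with different detection, and its capitals mark the 5p arm (bases 29 to 51 of 109) and the 3p arm (bases 65 to 87).
Mir423, chr11:77078064-77078172, minus strand: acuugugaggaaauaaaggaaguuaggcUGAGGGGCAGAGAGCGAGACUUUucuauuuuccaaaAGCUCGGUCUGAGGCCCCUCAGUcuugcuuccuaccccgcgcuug

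The MSC+LLC array was far dimmer than the LLC array, and this sets the scale of every level given here. A miRNA was called detected when at least 1 probe had more than 50% of its spots well above background, outlier spots aside. By this rule, 502 of 1881 miRNAs (26.7%) were detected on the LLC array, 258 (13.7%) on the MSC+LLC array and 240 on both. Among probes seen on both, the 75th percentile was 2883 intensity units for LLC and 250.3 for MSC+LLC, an 11.52-fold gap. The lowest detected probe stood at 20.9 units for LLC and 18.8 for MSC+LLC. The 2 arrays shared a slide and a scan, so that array position and group cannot be told apart. Levels are given as background-subtracted intensity with the SD over the spots of a probe, which is technical, and the number of arrays, 1 per group, limits the precision. Different probes bind with different strength, so brightness was not compared between members.

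miR-425-5p, the partner of miR-191 in its cluster, was bright on both arrays. Its 1st probe read 1201 ± 89.2 units for LLC and 75.7 ± 6.34 for MSC+LLC (SD, n = 15 spots each). Its 2nd probe read 489 ± 40.9 and 33.9 ± 5.85 (SD, n = 15 spots each). Every spot of both probes was well above background on both arrays, and the lowest LLC spot of each probe lay above its highest MSC+LLC spot.

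miR-423-5p, the 5p arm of the miR-423 hairpin, was likewise detected by both of its probes on both arrays. The 1st read 276.6 ± 20.3 units for LLC and 39.2 ± 5.52 for MSC+LLC (SD, n = 15 spots each). The 2nd read 1133 ± 57.1 and 139 ± 9.80 (SD, n = 15 spots each). All spots were well above background, and the spots of the 2 arrays did not overlap.

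miR-320-3p, made without Drosha, was detected on both arrays by 1 of its 2 probes. That probe read 275 ± 26.1 units for LLC and 47.2 ± 6.10 for MSC+LLC (SD, n = 15 spots each), with no overlap between the spots. The dimmer probe read 98.9 ± 9.61 for LLC and 18.2 ± 4.31 for MSC+LLC (SD, n = 15 spots each), where 6 of its 15 spots passed as well above background, too few for detection.

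miR-484, the other member made without Drosha, differed least in brightness between the arrays among the 4 members measured on both. The probe detected on both read 70.2 ± 10.2 units for LLC and 48.9 ± 7.52 for MSC+LLC (SD, n = 14 spots each). Its spots ran from 53.7 to 91.5 with a median of 67.4 on the LLC array, and from 35.7 to 64.3 with a median of 49.9 on the MSC+LLC array, so that the ranges overlapped. The dimmer probe read 24.2 ± 5.55 units (SD, n = 14 spots, 8 well above background) for LLC and 17.1 ± 5.45 (SD, n = 15 spots, 6 well above background) for MSC+LLC. Of the 6 member probes detected on both arrays, 5 had spot ranges that did not overlap before scaling, and the miR-484 probe was the exception. The median log2 ratio over all 240 miRNAs measured on both arrays was −3.38 before scaling, so such gaps are not particular to the members. The share of all probes without overlap was not counted. The highest of the 965 negative control spots of the MSC+LLC array reached 18.2 units, under every spot of the miR-484 probe detected on both arrays.

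miR-186-5p, whose hairpin lies within Zranb2, was detected on the LLC array alone. Its brighter probe had a median of 74.7 units there (SD 13.2, n = 14 spots, 14 well above background) and a mean of 2.91 ± 3.40 on the MSC+LLC array (SD, n = 15 spots, 0 well above background), where the negative control spots averaged 3.70 ± 3.43 (SD, n = 965 spots). The other probe read 19.1 ± 7.54 for LLC (SD, n = 15 spots, 5 well above background) and 2.08 ± 3.71 for MSC+LLC. Before scaling, miR-186-5p was at least 3.99-fold lower on the MSC+LLC array. After scaling, only an upper limit of the miR-186-5p ratio could be given, and a decrease could not be shown. A probe under 216.5 units on the LLC array would fall under the lowest detected probe of the MSC+LLC array at an unchanged relative level.

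By the rule of more than 50% of spots, neither array detected miR-191-5p or miR-423-3p. The 4 probes of miR-191-5p averaged −7.34, −3.97, 18.0 and 12.2 units for LLC and −6.84, −4.76, −2.84 and 0.27 for MSC+LLC. On the LLC array 2 of 7 spots of its 3rd probe were well above background, and no other miR-191-5p spot was on either array. The 4 probes of miR-423-3p averaged 4.198, −0.67, 11.8 and 13.7 units for LLC and −1.68, −2.42, −0.76 and 2.95 for MSC+LLC, with 0 spots well above background. For comparison, the negative control spots of the LLC array averaged 2.09 ± 3.82 (SD, n = 986 spots) and reached 14.4. The scanner software's own detection flag, which is less strict, called miR-191-5p detected on the LLC array and not on the MSC+LLC array, and called miR-423-3p on neither.

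Among the other arms that the array carries, miR-191-3p was detected on the LLC array by 1 of its 4 probes (31.8 ± 4.53 against 4.31 ± 1.75 units on the MSC+LLC array; SD, n = 7 spots each). miR-425-3p, miR-320-5p and miR-186-3p were detected on neither array. Over all 7 members, 133 of 202 LLC spots (65.8%) and 101 of 205 MSC+LLC spots (49.3%) were well above background. Over the miRNA spots of the whole array, the shares were 23.25% for LLC and 11.48% for MSC+LLC.

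**Figure D1:**
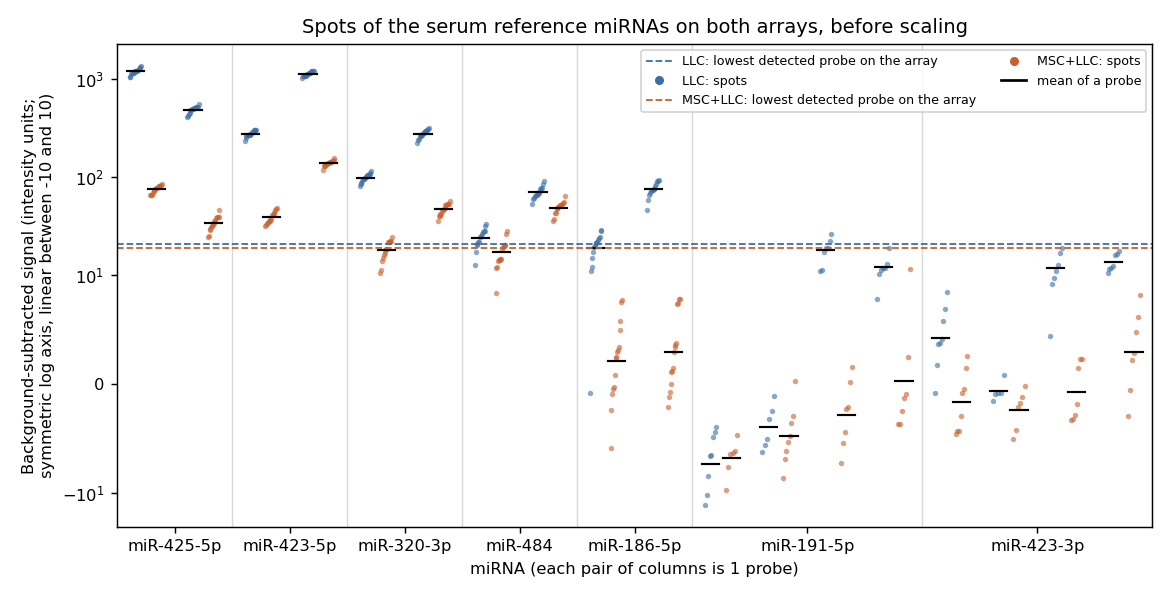
Background-subtracted signal of the spots of the 7 members, outlier spots left out, in intensity units, on an axis that is logarithmic above 10 and below -10 and linear between; each pair of columns is 1 probe, spots within a column are sorted by value, black bars are means, and dashed lines mark the lowest detected probe of each array. miR-425-5p, miR-423-5p and miR-320-3p drop by 5.84- to 15.1-fold from LLC (blue) to MSC+LLC (orange) before scaling, miR-484 by 1.44-fold, and miR-191-5p and miR-423-3p lie near or below the dashed lines on both arrays.

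Each array was divided by its 75th percentile, and log2 of MSC+LLC over LLC was taken, so that 0 is a miRNA that dimmed as much as that percentile. miR-425-5p stood at −0.39 (spot-to-spot SD 0.23; probes −0.46 and −0.32). miR-423-5p stood at 0.60 (SD 0.18; probes 0.50 and 0.71). miR-320-3p stood at 0.98 (SD 0.23), just under the 2-fold threshold, and miR-484 at 3.00 (SD 0.31), 8.02-fold higher in MSC+LLC. Before scaling all 4 were lower on the MSC+LLC array, by 15.1-fold for miR-425-5p, 7.58-fold for miR-423-5p, 5.84-fold for miR-320-3p and 1.44-fold for miR-484. The median over all 240 miRNAs measured on both arrays was −3.38 before scaling and 0.15 after it, so that each scaled ratio is relative to the rest of the array.

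The dimmer probes of miR-320-3p and miR-484, left out of these ratios because the MSC+LLC array did not detect them, averaged 18.2 and 17.1 units there, under its lowest detected probe at 18.8, so that the ratios of miR-320-3p and miR-484 rest on 1 probe each.

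By count, 1 of the 4 measured members passed the 2-fold threshold upward and 0 passed it downward, where 65 of all 240 miRNAs measured on both arrays (27.1%) were higher and 27 (11.2%) lower. The share among the members was near that background. The median of the 4 was 0.79, beside 0.15 over all 240. Their SD was 1.43 and the SD over all 240 was 1.66. miR-484 carried much of the members' spread, as without it the SD was 0.71 and the median 0.60. Because miR-484 could be measured only at a high ratio, these SDs cannot rank the members' spread against that of miRNAs in general. Of all 240 miRNAs, 27.5% had a lower ratio than miR-425-5p, 64.2% than miR-423-5p, 72.1% than miR-320-3p and 93.3% than miR-484.

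The detection limit of the dimmer array bears on miR-484 directly. With 70.2 units on the LLC array, its probe would have been under the lowest detected probe of the MSC+LLC array at any log2 ratio below 1.62. A dim miRNA could therefore enter the 240 through a high ratio alone, whereas the limits were −2.47 for miR-425-5p, −2.39 for miR-423-5p and −0.35 for miR-320-3p. miR-186-5p had about the same limit, 1.53, and was not detected. As its ratio was then no higher than that limit, the change of miR-484 was at least 2.78-fold above that of miR-186-5p, under any factor per array. Hence the count of 4 measured members does not describe all 7.

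**Figure D2:**
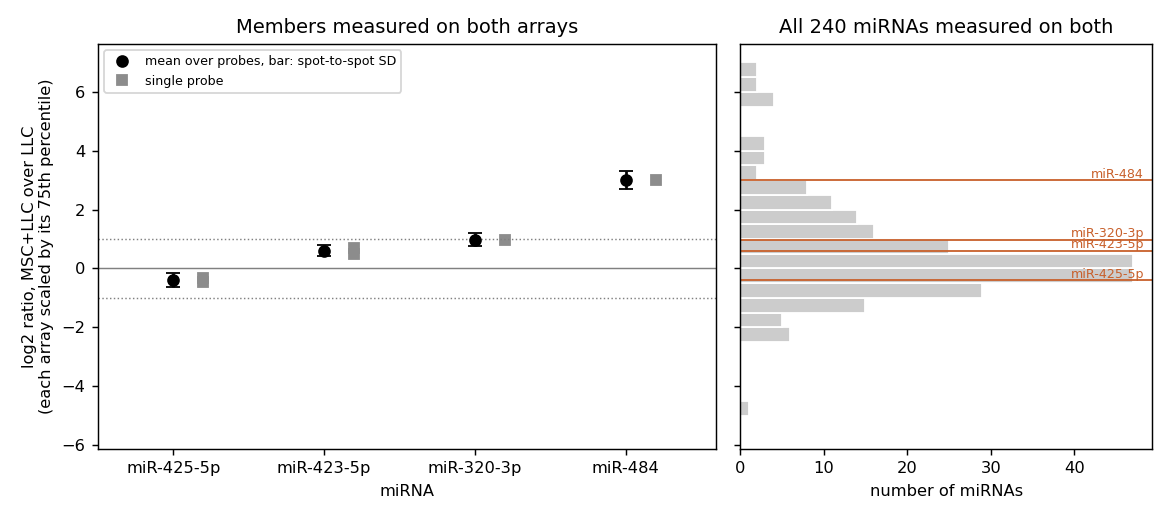
Left, log2 ratio of MSC+LLC over LLC for the 4 members measured on both arrays, with the spot-to-spot SD as bars, single probes as squares and dotted lines at 2-fold; right, the number of miRNAs per 0.5 log2 units over all 240 measured on both arrays, with the members as lines. miR-425-5p at −0.39 and miR-423-5p at 0.60 lie in the bulk of the distribution, and miR-484 at 3.00 has 93.3% of the miRNAs under it.

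A single factor per array cancels in the difference between members, so that scaling of this kind leaves their mutual spread as it is. Of the 6 pairs, miR-320-3p and miR-423-5p stayed closest, with a difference of 0.38 in log2 ratio (1.299-fold; spot-to-spot SD 0.30). miR-423-5p and miR-425-5p differed by 1.00 (1.996-fold; SD 0.29), and miR-320-3p and miR-425-5p by 1.37 (2.59-fold; SD 0.32). miR-484 stood 2.02 above miR-320-3p (4.07-fold; SD 0.38), 2.40 above miR-423-5p (5.28-fold; SD 0.36) and 3.40 above miR-425-5p (10.5-fold; SD 0.38). The difference of the closest pair slightly exceeded its SD over spots, and the other 5 differences were 3.41 to 8.93 times theirs. That SD covers the spots of these 2 arrays alone, and with 1 array per group the spread between samples of a group is unknown, so no difference was set against it.

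**Figure D3:**
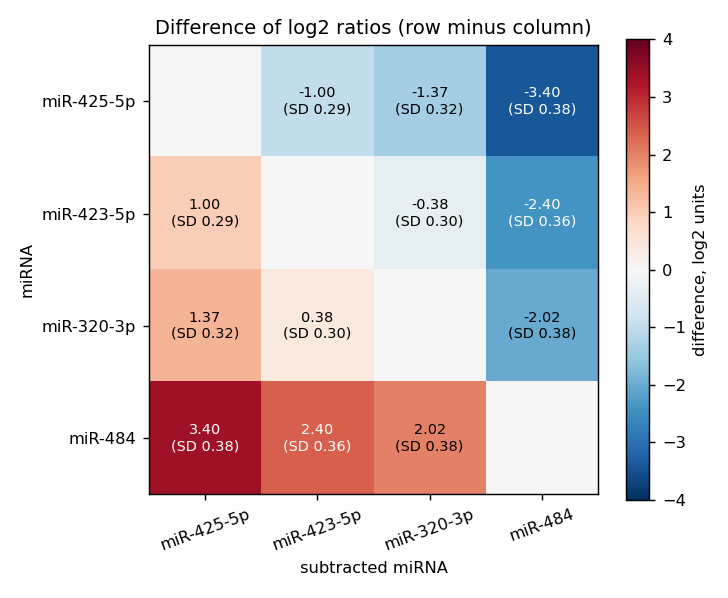
Difference between the log2 ratios (MSC+LLC over LLC) of each pair of members, the row miRNA minus the column miRNA, with the spot-to-spot SD of each difference. Differences among miR-425-5p, miR-423-5p and miR-320-3p reach 1.37, and those with miR-484 run from 2.02 to 3.40.

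Over the main setting and 16 alternatives, the order of the ratios was the same in all: miR-425-5p lowest, then miR-423-5p, miR-320-3p and miR-484. Alternatives that change only the factor per array keep this order and the 10.5-fold range by construction, so they could not test it. The deposited values likewise differ from the summed signal only by a constant per array. The fold range between the lowest and the highest member was 9.37 to 11.2 in all settings but normexp background correction, which gave 5.70. The sign of each single ratio was less settled. miR-423-5p and miR-320-3p, above 0 in the main setting, read −2.92 and −2.55 without scaling. Both were negative under every spike-in scaling as well. Where all probes set the 75th percentile, they read −0.61 and −0.23. miR-425-5p was below 0 in 15 of 16 alternatives and 0.39 under normexp, and miR-484 was above 0 in 14 of 16, with −0.52 without scaling and −0.56 after scaling to the hybridization spike-ins. The difference between miR-320-3p and miR-423-5p ran from 0.30 to 0.50, and that between miR-484 and miR-425-5p from 2.51 to 3.49.

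**Figure D4:**
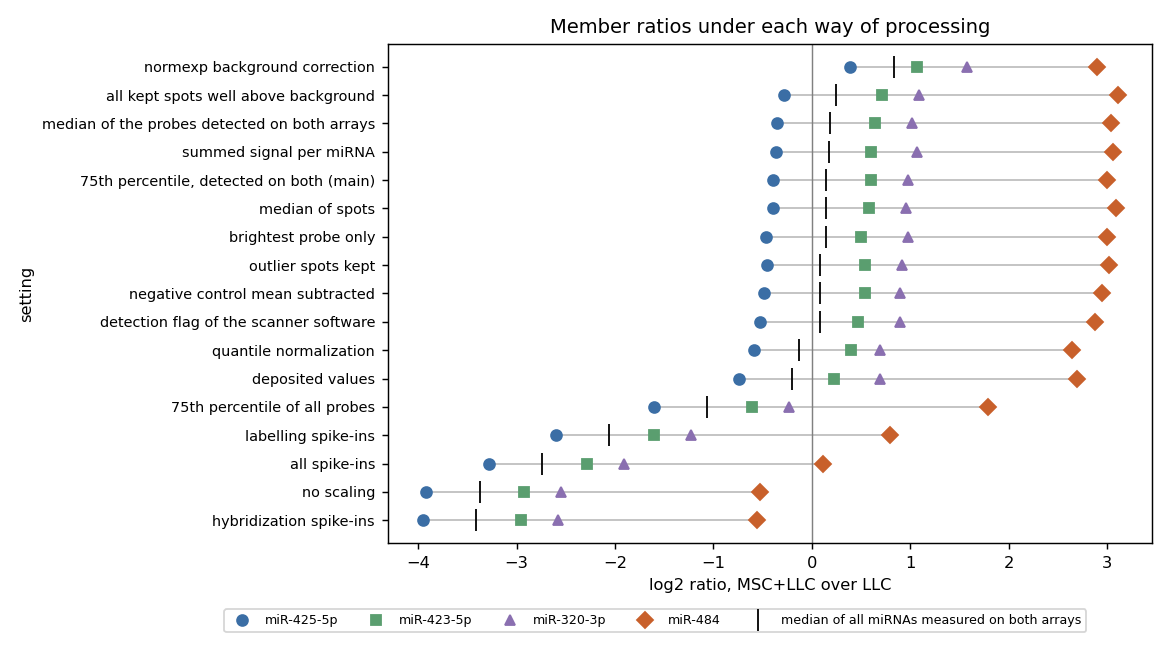
Log2 ratio of MSC+LLC over LLC of the 4 members under each way of processing, with the median over all miRNAs measured on both arrays as a black tick and grey lines from the lowest to the highest member. The median of the 4 runs from −2.77 to 1.32 and their order is the same in every row. Rows that differ only by a factor per array keep order and distance by construction. The distance between the lowest and the highest is shorter with normexp (5.70-fold) and with quantile normalization (9.37-fold) than in the main setting (10.5-fold).

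Taking each member in turn as the sole reference shows what these differences do to the 240 miRNAs measured on both arrays. Scaled to miR-425-5p, 85 of the 240 miRNAs (35.4%) were at least 2-fold higher in MSC+LLC and 14 (5.83%) at least 2-fold lower. Scaled to miR-423-5p, 48 (20%) were higher and 66 (27.5%) lower. Scaled to miR-320-3p, 35 (14.6%) were higher and 101 (42.1%) lower. Scaled to miR-484, 11 (4.58%) were higher and 205 (85.4%) lower, close to the 8 (3.33%) and 217 (90.4%) without any scaling. The median of the 4 members gave 39 (16.2%) higher and 84 (35%) lower. The main direction of the calls among these 240 miRNAs thus turned between miR-425-5p and miR-423-5p. The 262 miRNAs detected on the LLC array alone and the 18 on the MSC+LLC array alone are not in these counts. They therefore give no direction for the whole array.

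**Figure D5:**
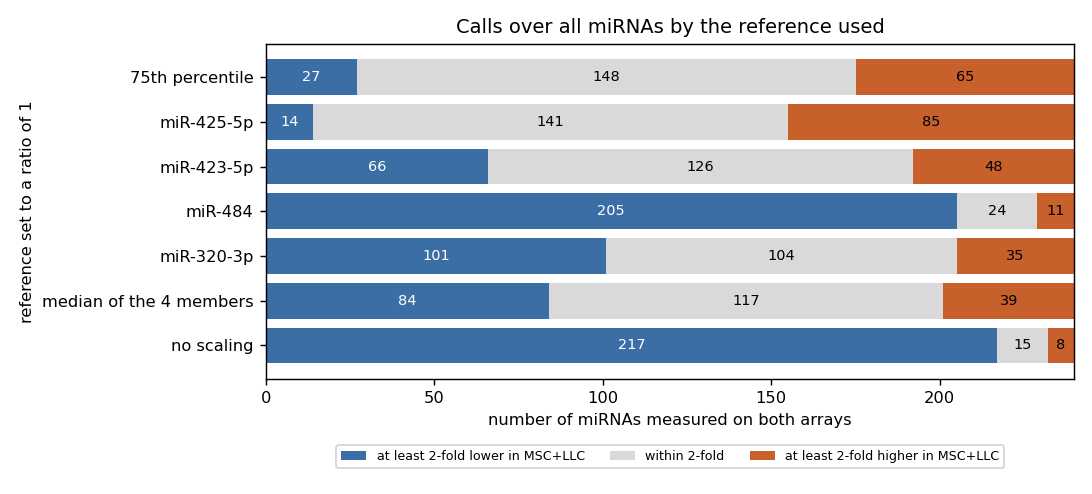
Number of the 240 miRNAs measured on both arrays that are at least 2-fold lower (blue), within 2-fold (grey) or at least 2-fold higher (orange) in MSC+LLC, when each named reference is set to a ratio of 1. Higher calls fall from 85 with miR-425-5p to 11 with miR-484, and lower calls grow from 14 to 205.

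The authors' deposited table, on a log2 scale, holds all 7 members, including those that the spots did not show. In this table each array's log2 summed signal was lowered by a constant (7.02 for LLC and 3.48 for MSC+LLC), and miRNAs without a detected signal stood at 0.1 before the log, which is −10.34 for LLC and −6.80 for MSC+LLC. The deposited difference, MSC+LLC minus LLC, was −0.74 for miR-425-5p, 0.23 for miR-423-5p, 0.69 for miR-320-3p and 2.69 for miR-484. miR-423-3p stood at 0.1 on both arrays, and its difference of 3.54 is the difference of the constants alone. For miR-186-5p (−4.43) and miR-191-5p (−0.95) the MSC+LLC value is the same 0.1, so that these 2 numbers are no measured ratios. miR-191-5p had a summed signal of 2.24 on the LLC array, from a probe with 2 of 7 spots well above background.

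A further list of 14 miRNAs that serve as normalizers in body fluids or tissues was set beside the members, of which 12 were measured on both arrays. Their ratios had a median of −0.12 and an SD of 0.95, with 1 past the 2-fold threshold upward and 3 downward. Over all 240 miRNAs measured on both arrays the SD was 1.66, with 27.1% past the threshold upward and 11.2% downward. miR-93-5p (0.01), miR-361-5p (0.05), miR-24-3p (−0.06), miR-152-3p (0.17) and miR-26a-5p (−0.18) lay nearest to 0, followed by miR-23a-3p (0.28), miR-30e-5p (−0.30) and miR-16-5p (−0.39). The value of miR-93-5p is the mean of 2 probes on opposite sides of 0 (−0.365 and 0.376). At the ends were let-7a-5p (−1.94), miR-103-3p (−1.50) and let-7i-5p (−1.19) on one side and miR-222-3p (1.75) on the other. miR-151-5p was detected on the LLC array alone and miR-361-3p on neither. miR-16-5p, which red blood cells carry in large amounts, and miR-425-5p both stood at −0.39, with spot-to-spot SDs of 0.20 and 0.23. The 4 erythroid miRNAs listed below ran from −2.33 to 1.66, so this likeness does not extend to that list.

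The non-members with at least 2 detected probes whose ratio was nearest to the members' median of 0.79 were miR-122-5p (0.78), miR-1249-3p (0.77) and miR-5126 (0.76). This likeness rests on 2 arrays, so that it is 1 ratio per miRNA. miR-122-5p is the main miRNA of hepatocytes.

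miRNAs of other cell sources differed between the arrays as well, and their part in the members' ratios was not tested. The brightest probes of each list, summed before scaling, fell from 88920 to 17572 units for 4 erythroid miRNAs (5.06-fold), from 23860 to 2145 for 5 leukocyte and platelet miRNAs (11.1-fold), from 5396 to 465 for 3 hepatocyte miRNAs (11.6-fold) and from 2134 to 311 for 6 mesenchymal stromal miRNAs (6.86-fold). Such a sum follows its brightest probe, and miR-451a held 67741 of the erythroid and miR-223-3p 18674 of the leukocyte and platelet units on the LLC array, so that the ratios of the single miRNAs are given as well. All 4 erythroid miRNAs were detected on both arrays, with ratios of 1.06 for miR-451a and 1.66 for miR-486a-5p, but −2.33 for both miR-144-3p and miR-144-5p (median −0.63). Of 5 leukocyte and platelet miRNAs 4 were measured (miR-142a-3p −2.25, miR-142a-5p −2.12, miR-126a-3p −0.51, miR-223-3p 0.14; median −1.32), and miR-150-5p was detected on the LLC array alone. Of 3 hepatocyte miRNAs 2 were measured, on opposite sides of 0 (miR-122-5p 0.78, miR-192-5p −0.32; median 0.23). The 3rd, miR-194-5p, was detected on the LLC array alone. Of 6 mesenchymal stromal miRNAs 3 were measured, miR-199a-3p at 0.57, miR-214-3p at 0.82 and miR-125b-5p at 0.97. miR-143-3p was detected on the LLC array alone, and miR-199a-5p and miR-145a-5p on neither.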

How the data were processed

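The sample titles gave the groups. The deposited scanner files hold background-subtracted, spatially detrended intensity per spot, with no scaling between arrays, and name Feature Extraction 11.5.1.1, whereas the submitters' processing notes give 10.7. RNA input was 100 ng. The authors' table of log2 values was made with GeneSpring GX 11.0, and its constants were found by setting it against the scanner files.

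Control and outlier spots (3.04% of LLC and 2.95% of MSC+LLC spots) were left out, and no spot was saturated. Spots were averaged per probe on the linear scale, array values were divided by the 75th percentile over probes that both arrays detected, and log2 ratios were averaged over the probes detected on both. The SD of a ratio was propagated from the spots. A bound sets a probe's signal against the higher of the lowest detected probe and the probe's own signal on the other array. As each group had 1 array, nothing was tested and p-values are absent. The steps were tested on simulated data.

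Named were the 7 members, their other arms, miRNAs with a member's seed, the lists, and the 3 nearest non-members. The members and lists were chosen with earlier results of these data known. miR-142 and miR-126 were matched under the array's names miR-142a and miR-126a. Alternatives covered scaling, spot and probe summaries, detection, background (normexp, offset 50, limma 3.58.1 in R 4.3.3, on the median pixel signal), the deposited values and the fold threshold (4 and 1.5). Subtraction of the negative control mean, leaving out miR-484, single members as reference and either kind of spike-in by itself were chosen after seeing the data. Python 3.11.15 with numpy 2.4.6, pandas 2.3.3 and matplotlib 3.10.9 was used. Sequences are from RefSeq GRCm38.p6; the file headers name another build, and no coordinate was taken from them.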

Additional observations from a re-analysis of the deposited data

How the results depend on the processing

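The median of the members, 0.79, became −0.42 with the 75th percentile of all probes, 0.55 with quantile normalization, 0.46 in the deposited values, 1.32 with normexp, −2.73 without scaling, and −2.10, −1.42 and −2.77 with all, the labelling and the hybridization spike-ins. miR-484 changed sign with the hybridization spike-ins (−0.56) and without scaling (−0.52). miR-423-5p and miR-320-3p changed sign with any spike-in scaling or none, and when all probes set the 75th percentile. miR-425-5p changed sign with normexp (0.39). The SD of 1.43 became 1.06 with normexp and 0.71 without miR-484. The count of members at least 2-fold higher, 1, became 2 when all kept spots had to be well above background, with the median of detected probes and with the summed signal, 3 with normexp or a threshold of 1.5, and 0 with any spike-in scaling or none. The count of members at least 2-fold lower, 0, became 3 with any spike-in scaling or none, and 1 with the 75th percentile over all probes. Without scaling, 90.4% of all 240 miRNAs were at least 2-fold lower and 3.33% higher. The median over all 240 was −2.74, −2.06 and −3.42 with all, the labelling and the hybridization spike-ins. It was −1.07 with the 75th percentile over all probes and 0.84 with normexp. These member counts thus moved along with the whole array. The cause was not tested for normexp, while a single factor per array shifts all ratios alike by construction. The share of all miRNAs at least 2-fold higher, 27.1%, became 16.2% with the median of the members, 14.6% with miR-320-3p and 4.58% with miR-484 as reference. The share at least 2-fold lower, 11.2%, became 35%, 42.1% and 85.4% with these, 27.5% with miR-423-5p and 5.83% with miR-425-5p. The number of members detected on both arrays was 4 in each alternative run for it. Fold changes under about 18.8 units on the MSC+LLC array could not be measured. No paired analysis was possible because there is a single array for either group.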
